A study of Mus musculus with 6 samples.

Results

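The 10 genes of the cytotoxic granule and its inhibitors described here were measured in mouse CD4+ T cells stimulated with or without itaconate: the granzyme genes Gzma and Gzmb, the perforin gene Prf1, the granule genes Srgn, Nkg7, Ctsw and Lamp3, the death ligand gene Fasl, and the serpin genes Serpinb9 and Serpinb6b. They were chosen by name, with earlier results of these data known, and all 10 had 1 entry each among the 55291 distinct gene symbols of the table. Splenic CD4+ T cells of wild-type C57BL/6 mice were loaded with the division dye CFSE and stimulated through CD3 and CD28 for 48 h in the presence of IL-2 (200 U). Itaconate, a dicarboxylate that activated macrophages make, was added at 5 mM to the treated cells, and NaCl at 5 mM to the controls, with 3 RNA-seq libraries for each. The columns taken for the controls are coded NAC, which no label explains; NaCl is the only other treatment named, and every comparison below depends on NAC standing for it. Whether replicates are separate mice or cultures is not stated, and p-values therefore reflect only a spread between libraries that may be technical. The study's title concerns cytotoxic CD8+ T cells, and the libraries described here are of the CD4+ lineage.

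Cytotoxic lymphocytes kill by emptying specialised lysosomes onto a target cell. Perforin opens the target's membrane, granzymes, which are serine proteases, enter and start cell death, and serglycin, a proteoglycan, holds both in the granule core. Granzyme that leaks inside the killer itself is trapped by serpins, which are suicide inhibitors of proteases. CD4+ T cells are mainly helper cells, and strong stimulation with IL-2 is known to switch on granzyme B and other granule genes in them.

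Values are the authors' normalized estimated counts per gene. Groups are given as mean ± SD (n = 3), differences as log2 fold changes of itaconate against NaCl on log2(value + 1) with the SE, and p-values are from limma with Benjamini-Hochberg adjustment over the 13180 genes with a mean of at least 10. Of the 10 genes 9 passed that filter, and Lamp3, with a mean of 0.993 over the 6 libraries, did not. With itaconate 5 of the 9 tested genes fell (Gzma, Gzmb, Prf1, Srgn and Serpinb9), 1 rose (Ctsw), and 3 did not pass (Nkg7, Fasl and Serpinb6b). Of all tested genes 36.0% passed, 17.8% lower and 18.2% higher. The median log2 fold change of the 9 genes was −0.46, beside −0.00088 for all tested genes.

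Read totals ran from 20074300 to 24145000 estimated reads per library. Each of the 10 genes had whole estimated reads in all 6 libraries (within 0.02 reads), so no division of reads with a related copy was seen for them. In bulk RNA, fewer cells that express a gene and less RNA per cell cannot be told apart.

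The label of CD4+ T cells was checked on marker lists, whose genes are named here after their values had been seen. Of 8 CD4 and pan T cell markers 3 rose (Cd4, Cd3e and Cd28), 2 fell and 3 did not pass, a share of 62.5% that passed beside 36.0% of all tested genes. The 8 markers summed to 61648 to 63563 with itaconate and 55082 to 60088 in NaCl. Cd4 went from 9519 ± 853 in NaCl to 13508 ± 435, whereas the T cell receptor signalling chain genes Cd247 (log2 fold change −0.60 ± 0.087) and Cd3g (−0.44 ± 0.0888) fell. The number of these markers that rose was 1 without the intensity trend and 2 without itaconate replicate 2, NaCl replicate 1 or NaCl replicate 3. Cd8a lay between 28.1 and 68.3 in all libraries. Cd8b1 was between 274 and 369, lower in each itaconate library (log2 fold change −0.23 ± 0.144, adjusted p = 0.235), and the 2 CD8 markers summed to 308 to 365 with itaconate and 363 to 408 in NaCl.

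Dendritic cell and macrophage markers moved in both directions. Of 14 such markers 9 were tested, of which 3 rose and 2 fell, and they summed to 3401 to 3807 with itaconate against 5683 to 6413 in NaCl. The integrin gene Itgam rose from 14.3 ± 9.12 to 59.0 ± 17.2 (log2 fold change 2.10 ± 0.49), as did the lysosomal gene Cd68 (0.92 ± 0.305) and the dendritic cell factor gene Zbtb46 (0.77 ± 0.254). The class II gene H2-Ab1 (−1.89 ± 0.15) and the activation marker gene Cd83 (−1.76 ± 0.158), with much higher counts, fell. Cd74, with the highest mean of the list, was at 1921 ± 142 with itaconate and 2018 ± 249 in NaCl (log2 fold change −0.066 ± 0.106, adjusted p = 0.661 in limma). The number that rose was 1 without itaconate replicate 1, itaconate replicate 2 or NaCl replicate 3 and without a filter, and 0 with a minimum mean of 100, which none of the 3 reaches. Among the markers below the filter, Siglech, Lyz2 and Csf1r were at 6.53 or less in every library. Adgre1 reached 9.67 in itaconate replicate 2, and Xcr1 reached 11.1 in NaCl replicate 2. Of the tested markers that did not pass, Itgax reached 32.2 in itaconate replicate 2 and Flt3 33.6 in NaCl replicate 3. Fscn1, which did not pass either, was between 312 and 546 in all libraries.

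Markers of other lymphocytes were low and did not pass in limma. All 12 markers of NK and innate lymphoid cells together summed to 54.2 to 84.0 with itaconate and 60.3 to 90.8 in NaCl. Klra1 was at 0 in every library and Ncr1 at 2.04 or less. The 4 tested ones, Klrc1, Klrd1, Klrk1 and Fcgr3, had highest values of 18.1, 28.6, 22.6 and 33.3. Klrd1 was lower in each itaconate library by a narrow margin, without passing (log2 fold change −0.62 ± 0.55, adjusted p = 0.413). The 3 gamma delta T cell markers summed to 59.1 to 75.8 against 51.0 to 85.4, and the 6 B cell markers to 173 to 308 against 228 to 305. Of the 4, 2 and 4 tested genes of these lists 0 passed, and 0 had an unadjusted p under 0.05. Of 8 granulocyte and mast cell markers 6 were at 0 in all libraries, and Ly6g, the single tested one, was lower in each itaconate library without passing (log2 fold change −1.07 ± 0.412, adjusted p = 0.060). The part of such cells in the results below was not tested.

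**Figure D1:**
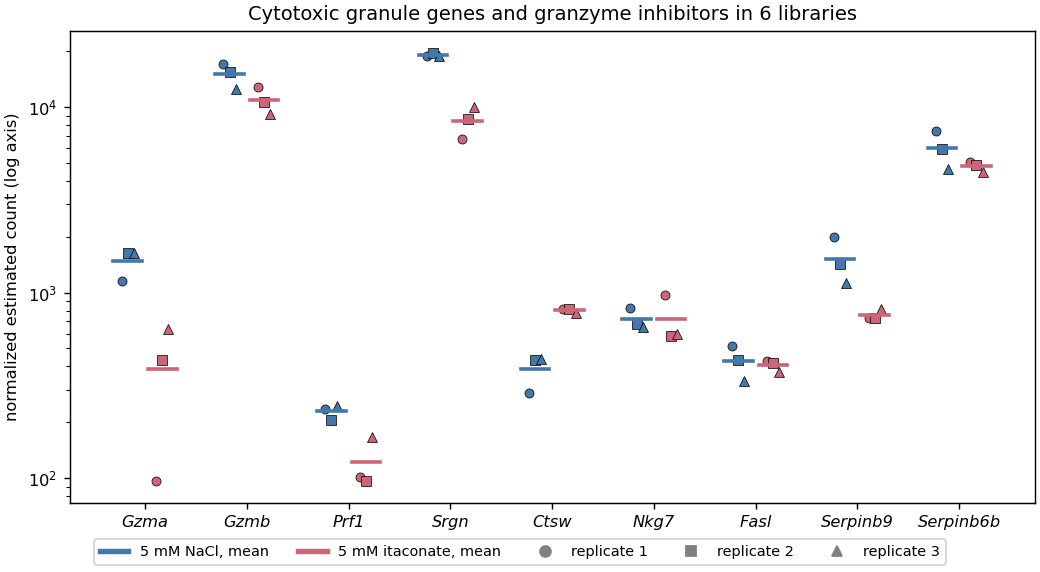
Normalized estimated counts (log axis) of 9 genes in the 3 NaCl libraries (blue) and the 3 itaconate libraries (red), with marker shape giving the replicate number and the horizontal line the group mean. All itaconate libraries lie below all NaCl libraries for Gzma, Prf1, Srgn and Serpinb9 and above them for Ctsw, and Gzma in itaconate replicate 1 is at 96.3. Of all tested genes 48.4% were without overlap in this way, 24.2% lower and 24.2% higher.

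Both granzyme genes fell. Gzma encodes a tryptase-like granzyme and Gzmb the granzyme that cleaves after aspartate and activates caspases. Gzma was at 96.3, 431 and 635 in the itaconate libraries and at 1159, 1639 and 1635 in the controls. The groups did not overlap, as for 48.4% of all tested genes (24.2% lower and 24.2% higher), and itaconate replicate 1 stood well below the other 2. The mean went from 1478 ± 276 in NaCl to 387 ± 272, a log2 fold change of −2.29 ± 0.486 (95% interval −3.34 to −1.23, adjusted p = 0.00299) or a 4.88-fold lower level on the scale of the fit. Without itaconate replicate 1 the log2 fold change was −1.48 (adjusted p = 6.70e-05). The call ended with limma without the intensity trend (adjusted p = 0.0592) and with robust variances (adjusted p = 0.101), and adjusted p ranged from 6.70e-05 to 0.101 over the 16 alternatives.

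Gzmb was the most abundant of the 10 genes per length in NaCl. Its values were 12795, 10689 and 9175 with itaconate and 17012, 15388 and 12537 in NaCl. The highest itaconate library was above the lowest control, so the groups overlapped. The mean of Gzmb fell from 14979 ± 2265 to 10886 ± 1818 (log2 fold change −0.46 ± 0.13, 95% interval −0.74 to −0.18, adjusted p = 0.0147). Gzmb missed the threshold when itaconate replicate 2 was left out (adjusted p = 0.0531), when NaCl replicate 1 (0.0596) or 2 (0.0627) was, after quantile normalization (log2 fold change −0.27, adjusted p = 0.125) and without the intensity trend (0.10), in a range up to 0.125 over the alternatives. In each group the library numbered 1 had the highest and the library numbered 3 the lowest Gzmb value, and the same held for Serpinb6b and Fasl.

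The 250 bases before the start of both granzyme genes are shown because the transcripts of factors that can bind such letters are described below. They come from RefSeq on GRCm38.p6, and capitals mark matches, on either strand, to TGTGGT (Runx), TCACACC (T-box), TTCNNNGAA (STAT), TGANTCA (AP-1), GGAAA (NFAT), CACGTG (E-box) or GAAANNGAA (letters shared by sites of IRF factors and of the Prdm1 product), the last chosen after the sequences had been read. Gzma lies on chromosome 13 (113093825 to 113100981, minus strand, 6 merged exons), and the window before its start is chr13:113100982-113101231. Gzmb lies on chromosome 14 (56258838 to 56262260, minus strand, 5 merged exons), and its window, chr14:56262335-56262584, precedes the RefSeq start, which is not within 50 bases of a GENCODE start.
Gzma: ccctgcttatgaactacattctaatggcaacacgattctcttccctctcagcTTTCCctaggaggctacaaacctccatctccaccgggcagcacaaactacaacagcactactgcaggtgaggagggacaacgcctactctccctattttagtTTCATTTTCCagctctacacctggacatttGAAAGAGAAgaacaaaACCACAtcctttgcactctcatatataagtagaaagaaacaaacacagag
Gzmb: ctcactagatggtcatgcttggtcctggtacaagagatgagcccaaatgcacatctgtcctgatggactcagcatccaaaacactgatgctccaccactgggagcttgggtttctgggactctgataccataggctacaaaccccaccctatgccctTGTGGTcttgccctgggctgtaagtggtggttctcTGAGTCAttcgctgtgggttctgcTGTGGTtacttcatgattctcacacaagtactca
Positions are counted back from the start, with −1 as the base before it. The Gzma window held 1 Runx match at −50 to −45, 2 NFAT matches at −198 to −194 and −91 to −87, and 2 matches to the IRF and PRDM1 letters, 1 at −66 to −58 and 1 at −96 to −88 that overlaps an NFAT match. The Gzmb window held 2 Runx matches at −93 to −88 and −34 to −29, and between them 1 AP-1 match at −58 to −52, with no overlap. Of 32851 RefSeq windows of the same length, 14% held the Runx letters, 6.75% the AP-1 letters, 55.6% the NFAT letters and 7.13% the IRF and PRDM1 letters. The T-box (3.33% of windows), STAT (7.02%) and E-box (6.02%) letters were in neither window. A match is a run of letters and not evidence of binding.

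Prf1, the perforin gene, was expressed at a low level and fell. It was at 102, 96.7 and 166 with itaconate and at 235, 207 and 246 in NaCl. Every itaconate library was below every control. The mean went from 229 ± 20.1 to 122 ± 38.8 (log2 fold change −0.95 ± 0.226, adjusted p = 0.00585), a 1.93-fold lower level. It passed in all 16 alternatives, in each with a lower level. Between 90 and 271 estimated reads per library stood behind these values, so counting error is larger here than for Gzmb, with 8939 to 16681 reads.

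Among the other granule genes, serglycin fell and cathepsin W rose. Srgn, whose product packs granzymes and perforin and is also made by other blood cells, was at 6751, 8592 and 9942 with itaconate and at 18811, 19631 and 18795 in NaCl. The 3 controls lay close together, and all itaconate libraries were far below them. The log2 fold change was −1.20 ± 0.119 (adjusted p = 1.47e-05), a 2.29-fold lower level, and ranged from −1.32 to −1.02 over the 16 alternatives, all of which passed. Ctsw, a cysteine protease gene known mainly from NK and CD8+ T cells, was at 813, 820 and 778 with itaconate and at 287, 435 and 441 in NaCl. It went the opposite way to the granzymes, with all itaconate libraries above all controls. Its mean rose from 388 ± 87.5 to 803 ± 22.3 (log2 fold change 1.08 ± 0.161, adjusted p = 2.78e-04), a 2.11-fold higher level, and it passed in all 16 alternatives.

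Nkg7, a granule membrane protein gene needed for efficient release, was at 969, 580 and 601 with itaconate and at 830, 676 and 656 in NaCl. The groups overlapped, and in both of them the library numbered 1 was highest. The log2 fold change was −0.04 (95% interval −0.43 to 0.35, adjusted p = 0.881), an interval that leaves room for a change of either sign. Lamp3, a lysosomal membrane protein gene best known from mature dendritic cells, had at most 3 estimated reads in any library and was at 1.87, 0 and 1.03 with itaconate and 3.06, 0 and 0 in NaCl. No difference in Lamp3 was detectable at this depth.

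Fasl, the ligand that kills through the death receptor Fas without granules, was at 426, 419 and 373 with itaconate and at 513, 434 and 332 in NaCl. The itaconate values lay within the range of the controls. Its log2 fold change was −0.05 (95% interval −0.41 to 0.30, adjusted p = 0.834).

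Of the 2 inhibitor genes, Serpinb9 fell and Serpinb6b did not pass. Serpinb9 encodes the serpin that traps granzyme B in the cell that makes it. It was at 727, 734 and 813 with itaconate and at 1988, 1432 and 1132 in NaCl. The itaconate libraries were close together and all below the controls, which were spread widely. The mean went from 1517 ± 434 to 758 ± 47.9 (log2 fold change −0.96 ± 0.165, adjusted p = 7.24e-04), a 1.95-fold lower level, with a range of −1.16 to −0.75 over the 16 alternatives, all of which passed. Serpinb6b, a mouse serpin described as an inhibitor of granzyme A, was at 5063, 4857 and 4447 with itaconate and at 7419, 5912 and 4617 in NaCl. The highest itaconate values lay above the lowest control. Its log2 fold change was −0.30 (95% interval −0.59 to 0.0023, adjusted p = 0.112), and it passed without NaCl replicate 3 (log2 fold change −0.47, adjusted p = 0.0105), whereas without NaCl replicate 1 the log2 fold change was −0.13 (adjusted p = 0.434). Adjusted p ranged from 0.0105 to 0.434 over the 16 alternatives.

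Both serpin genes lie on chromosome 13 of GRCm38, Serpinb6b at 32965209 to 32979067 and Serpinb9 at 33003250 to 33017957, both on the plus strand. The 250 bases before the RefSeq start of Serpinb9, chr13:33004291-33004540, are shown because Prdm1, whose product binds letters like a run in them, is described below. They lie within the Serpinb9 gene as GENCODE draws it, outside its exons.
Serpinb9: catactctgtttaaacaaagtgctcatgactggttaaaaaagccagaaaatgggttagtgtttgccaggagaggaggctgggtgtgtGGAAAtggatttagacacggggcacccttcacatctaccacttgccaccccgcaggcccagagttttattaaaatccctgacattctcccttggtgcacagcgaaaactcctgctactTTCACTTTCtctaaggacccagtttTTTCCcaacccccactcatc
The window held the IRF and PRDM1 letters on the opposite strand at −45 to −37, and 2 NFAT matches, at −163 to −159 and −20 to −16, that do not overlap them. Of the 9 genes with a RefSeq entry, Gzma, Srgn and Lamp3 also held these letters, as did 7.13% of all 32851 windows. Srgn held them before its start at 62507757 and not before that at 62527445. Since the letters were chosen after the sequences had been read, the number of genes that hold them is no test.

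**Figure D2:**
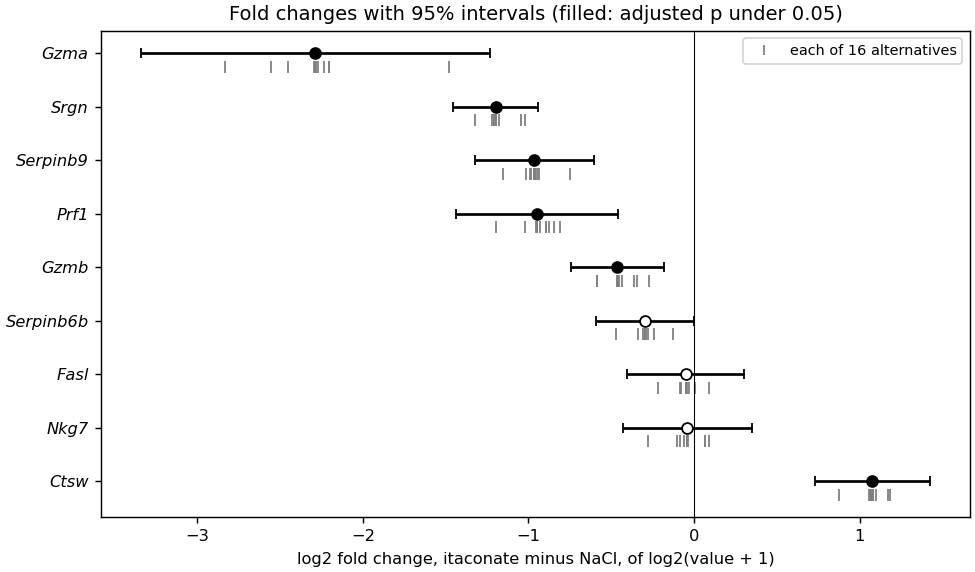
Log2 fold change of itaconate against NaCl for 9 genes (points, with 95% intervals from limma), filled where the adjusted p was under 0.05, with grey ticks for the values under each of 16 alternatives. Gzma is lowest at −2.29 with ticks from −2.83 to −1.48, Ctsw is alone above 0 at 1.08, and the intervals of Serpinb6b, Fasl and Nkg7 cross 0.

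The balance of granzyme B and its inhibitor was read within each library, where scaling between libraries cancels. Gzmb was 17.6, 14.6 and 11.3 times Serpinb9 with itaconate and 8.56, 10.7 and 11.1 times in NaCl. All itaconate ratios were above all control ratios, but itaconate replicate 3 and NaCl replicate 3 were nearly equal. The mean log2 ratio was 3.83 ± 0.322 with itaconate and 3.33 ± 0.203 in NaCl (SD, n = 3), a difference of 0.50 (exact permutation test, two-sided, p = 0.10, the smallest that 3 against 3 libraries allows).

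**Figure D3:**
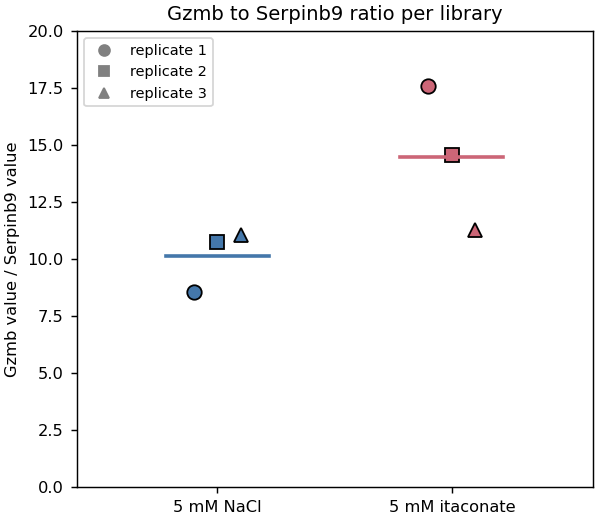
Ratio of the Gzmb value to the Serpinb9 value in each library (points, marker shape giving the replicate number), with the group means as lines and the axis starting at 0. The ratios are 8.56 to 11.1 in NaCl and 11.3 to 17.6 with itaconate, so the groups do not overlap but nearly touch.

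Levels were compared between genes as normalized estimated counts per kilobase of merged exons. In NaCl the order was Gzmb (10431 ± 1577 per kilobase), Srgn (8688 ± 218), Serpinb6b (2645 ± 620), Gzma (1469 ± 275), Nkg7 (789 ± 104), Serpinb9 (434 ± 124), Fasl (220.1 ± 46.8), Ctsw (205 ± 46.4) and Prf1 (88.7 ± 7.77), with Lamp3 last. Gzmb and Srgn overlapped, as did Fasl and Ctsw, and the other neighbours did not. With itaconate Gzmb (7581 ± 1266) was above Srgn (3838 ± 730) in every library. Ctsw (426 ± 11.8) lay within the wide spread of Gzma (385 ± 271), which was at 95.8, 428 and 632 in itaconate replicates 1, 2 and 3. Serpinb9 (217 ± 13.7) was then level with Fasl (209 ± 14.9). Per kilobase Cd8b1 was at 198 ± 17.2 with itaconate and 232 ± 15.5 in NaCl, which is near Fasl, and Cd8a at 9.87 ± 1.73 and 12.5 ± 5.68.

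Other granzymes were almost absent. Of 8 further granzyme genes, 3 were at 0 in all libraries (Gzmd, Gzmg and Gzmn), 4 were below a mean of 10, and only Gzmc, a granzyme of strongly stimulated killer cells, was tested. Gzmc was at 7.48, 4.30 and 9.24 with itaconate and at 28.6, 14.1 and 22.7 in NaCl. All its itaconate libraries were below the controls, at few reads, and it did not pass (log2 fold change −1.51 ± 0.594, adjusted p = 0.0653). With a pseudocount of 10 the log2 fold change was −0.89, and without the intensity trend it passed (adjusted p = 0.0261, range 0.0261 to 0.203).

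Of 26 listed genes that mature, move and release granules, 25 had an entry and were tested, and 5 rose, 5 fell and 15 did not pass, with a median log2 fold change of −0.029. The share that passed, 40%, was near the 36.0% of all tested genes. Sytl2, which encodes a synaptotagmin-like protein that tethers granules through Rab27a, rose from 38.4 ± 12.6 to 159 ± 38.0 (log2 fold change 2.04 ± 0.305, adjusted p = 2.78e-04). Rab27a, the small GTPase that docks cytotoxic granules at the membrane, rose by 0.49 ± 0.0856 and was at 2413, 2378 and 2395 with itaconate and 1621, 1773 and 1716 in NaCl. Igf2r and M6pr encode the large and the small mannose 6-phosphate receptor, which carry granzymes to the granule, and they went opposite ways: Igf2r rose by 0.76 ± 0.093 and M6pr fell, with a log2 change of −0.33 ± 0.0813. Calr, a chaperone that also binds perforin, fell (−0.58 ± 0.0802).

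Further genes of that list are named here after their values had been seen. Stx11, a fusion protein gene needed for granule release, fell (−0.61 ± 0.109), as did the lysosome-related organelle genes Ap3b1 (−0.45 ± 0.115) and Hps1 (−0.56 ± 0.128). Ap3b1 did not pass when itaconate replicate 2 was left out (adjusted p = 0.0516) or without the intensity trend (0.0633). Ctsc, whose product trims granzymes to their active form, had a log2 change of −0.19 (95% interval −0.50 to 0.12, adjusted p = 0.325). Cst7, the cathepsin inhibitor cystatin F, was at −0.25 (adjusted p = 0.0877, range 0.0183 to 0.256 over the alternatives), and passed without itaconate replicate 3 (0.0183). The number of genes that rose in the list was 3 without itaconate replicate 2, without itaconate replicate 3 and without a filter on low values, since the cathepsin genes Ctsb (0.26 ± 0.0909, adjusted p = 0.0384) and Ctsl (0.44 ± 0.158, adjusted p = 0.0451) passed by little.

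Among other serpins, 6 of 16 genes were at 0 in all libraries, 4 were below a mean of 10 and 6 were tested, of which 1 rose and 2 fell (median log2 fold change −0.17), a share of 50% beside 36.0% of all tested genes. Serpina3g, a serpin gene of activated T cells, fell from 98.1 ± 22 to 41.3 ± 12.4 (−1.25 ± 0.316, adjusted p = 0.00825), and without NaCl replicate 2 it missed the threshold by little (adjusted p = 0.05005). Serpine2, protease nexin 1, rose (1.32 ± 0.2) and is not known as a granzyme inhibitor of the cytotoxic cell. Serpinb1a was at 34.6, 27.9 and 16.4 with itaconate and at 8.16, 16.1 and 3.63 in NaCl, higher in each itaconate library by a narrow margin, and did not pass (1.54 ± 0.616, adjusted p = 0.0684). It passed when itaconate replicate 3 (adjusted p = 0.0499) or NaCl replicate 2 (0.0379) was left out, in a range up to 0.207, and was 0.93 with a pseudocount of 10. The serpin list had 2 genes higher without itaconate replicate 3 or NaCl replicate 2, and 1 lower without NaCl replicate 2. Serpinb2, below the filter and named after its values had been seen, was listed at 0 in all itaconate libraries and at 11.2, 20.1 and 9.08 in NaCl.

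On the receiving side of the death signals, 2 of 15 genes rose, 3 fell and 10 did not pass (median log2 fold change 0.041). The 15 include the ligand gene Tnfsf10, named after its values had been seen, which did not pass. The share that passed, 33.3%, was near the 36.0% of all tested genes. Fas, the receptor of Fas ligand, was at 1108, 1232 and 1155 with itaconate and at 889, 908 and 873 in NaCl and rose (0.39 ± 0.0984, adjusted p = 0.00850). The genes just below the receptor fell: the adaptor gene Fadd (−1.02 ± 0.219), the initiator caspase gene Casp8 (−0.50 ± 0.121) and Cflar, which encodes the caspase 8 inhibitor c-FLIP (−0.78 ± 0.084, adjusted p = 2.84e-05). Casp8 did not pass without the intensity trend (adjusted p = 0.0580). The number of these genes that rose was 1 without itaconate replicate 2, NaCl replicate 2 or NaCl replicate 3, without a filter and without the intensity trend.

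Most transcription factor and receptor genes that govern the cytotoxic programme fell. Of 22 tested genes 14 fell, 4 rose and 4 did not pass, with a median log2 fold change of −0.43. The share that passed was 81.8%, beside 36.0% of all tested genes. The list was drawn up with earlier results of these data known, so its share is not an independent test. Prdm1, which encodes Blimp-1 of effector cells, was at 77.6, 139 and 145 with itaconate and at 464, 600 and 556 in NaCl. All itaconate libraries were far below the controls (log2 fold change −2.20 ± 0.227, adjusted p = 2.03e-05). Nfil3, a basic leucine zipper factor gene, fell from 7030 ± 229 to 2469 ± 824 (−1.56 ± 0.172), and Bhlhe40, a factor gene of effector T cells, from 19203 ± 2326 to 9865 ± 990 (−0.96 ± 0.106). Il2ra, the chain that makes the IL-2 receptor high in affinity, fell as well (−1.18 ± 0.135), with itaconate values of 15034, 15326 and 22787 against 38111 or more in NaCl.

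Further regulators are named after their values had been seen, to give both directions. Tbx21, which encodes T-bet, an activator of effector genes, fell from 1656 ± 83.3 to 998 ± 191 (−0.74 ± 0.127). Stat4, which relays interleukin 12 signals, rose (0.54 ± 0.143, adjusted p = 0.0103), and so did the T-bet relative Eomes, from 111 ± 16 to 214 ± 19.2 (0.95 ± 0.195, adjusted p = 0.00240). The paired inhibitor genes Id2, of effector cells, and Id3, of memory-like cells, went opposite ways, Id2 from 2416 ± 394 to 1025 ± 233 (−1.25 ± 0.156) and Id3 from 234 ± 33.3 to 686 ± 261 (1.49 ± 0.218). Runx3, a factor of the CD8+ lineage that binds granule gene promoters, fell (−0.57 ± 0.0998). Zbtb7b, the ThPOK factor that holds CD4+ cells to the helper lineage, was at −0.15 (95% interval −0.33 to 0.031, adjusted p = 0.184). Zfp683, which encodes Hobit of resident killer cells, was at 89.8, 103 and 35.9 with itaconate and 12.2, 14.1 and 33.6 in NaCl. The groups nearly touched; it rose (1.89 ± 0.491), and without itaconate replicate 2 did not pass (adjusted p = 0.0597). Without itaconate replicate 2 the list had 2 genes higher.

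**Figure D4:**
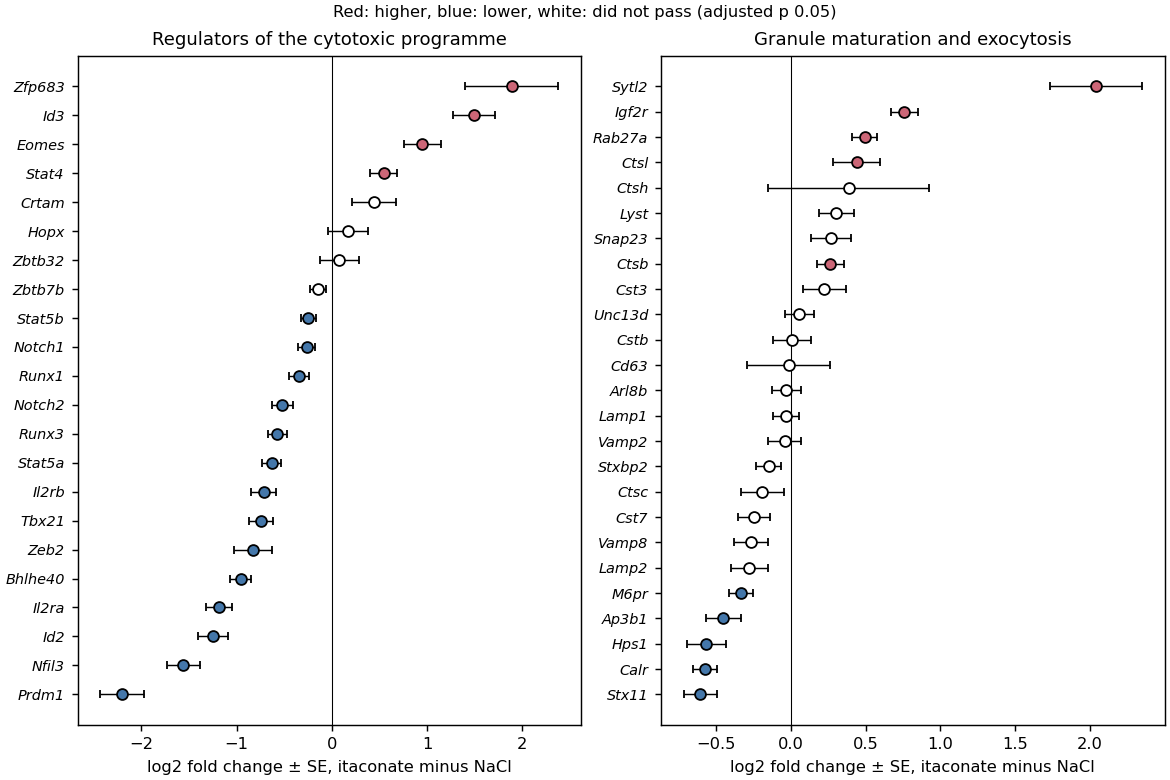
Log2 fold change ± SE of itaconate against NaCl for 22 regulators of the cytotoxic programme (left) and 25 genes of granule maturation and exocytosis (right), red where higher, blue where lower and white where the adjusted p was not under 0.05. The left panel runs from Prdm1 at −2.20 to Zfp683 at 1.89 and has 14 blue points, and the right panel has 5 blue and 5 red points, with Sytl2 at 2.04.

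The genes most like Gzmb and Srgn over the 6 libraries were found by the root mean square difference of log2 profiles, each centred on its own mean, among 9596 genes with a mean of at least 100. For Gzmb they were Farsb (0.0379 on the log2 scale), Iars (0.0383) and Etf1 (0.0726), which encode a subunit of phenylalanyl-tRNA synthetase, isoleucyl-tRNA synthetase and a translation release factor. Like Gzmb, they were highest in the library numbered 1 and lowest in that numbered 3 in each group. For Srgn they were Ikzf3 (0.0447), the Aiolos factor gene, Hemk1 (0.0516), a methyltransferase gene, and Vegfa (0.0645), a vascular growth factor gene. Among the 9 genes themselves the closest profiles were those of Fasl and Serpinb6b (0.126), then Gzmb and Serpinb6b (0.140), whereas Gzma and Gzmb differed by 1.35 and Gzma and Ctsw, the farthest pair, by 1.88. These distances describe the 6 libraries, and the group difference is part of them.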

How the data were processed

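Libraries were assigned to groups by their titles, and table columns by treatment code and replicate number. The authors deposited a single table whose values, used here as a signal, are RSEM estimated counts divided by a factor for each library. Per the submitters' processing notes, STAR 2.7.0f, RSEM 1.3.0 and mm10 were used. Annotation, size factor tool and strand setting: not given in the sources used here. A value therefore says how a gene stands among the others of its library, not how much RNA a cell holds.

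Of 55401 entries, 107 symbols stood on more than 1, and the most abundant entry gave such a symbol its value. Read totals were recovered from the step between low values. Genes with a mean of at least 10 (13180) were fitted as log2(value + 1) in limma 3.58.1 (R 4.3.3) with an intensity trend and group as the single term. Tests were two-sided, and p-values were adjusted by Benjamini-Hochberg with a threshold of 0.05. The added 1 shrinks the fold changes of low genes.

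Members and lists were chosen with earlier results of these data known. Named genes are the 10 members, up to 4 genes with the smallest p of each other list, and the 3 most like Gzmb or Srgn; marker lists are given as counts and sums, and other genes are said to be named after their values were seen. Some genes of these lists are counted but not reported here by name. Positions and lengths are from GENCODE M21 (GRCm38), promoters from RefSeq GRCm38.p6 (9 of 10 members matched). Alternatives were a pseudocount of 0.1 or 10, a minimum mean of 100 or none, rescaling by TMM (trimmed mean of M values) or median ratios, quantile normalization, a replicate block, no intensity trend, robust variances and each library left out. Median-ratio rescaling had the same factor, 1.007, for every library and so repeated the main fit. TMM factors, 0.994 to 1.005, were close to 1. A changed filter, the replicate block, no intensity trend and robust variances keep a gene's fold change and alter only its p-value. The alternatives are therefore not independent checks.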

Additional observations from a re-analysis of the deposited data

How the results depend on the processing

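The number of the 9 tested genes that passed was 6, and it was 4 to 7 over the 16 alternatives: 4 without the intensity trend, 5 with quantile normalization or robust variances, 7 with the replicate block and 5 to 7 with each library left out. Genes called in all were 4741, and 3478 to 5636 over the alternatives, 3651 without the intensity trend and 5636 with the replicate block. Prf1, Srgn, Ctsw and Serpinb9 passed in the same direction in all 16; Gzma, Gzmb and Serpinb6b did so in 14, 11 and 2, and the cause was not tested. Values that did not pass changed sign with a library left out: Nkg7 ran from −0.28 to 0.091 (0.091 without itaconate replicate 2, 0.065 without itaconate replicate 3 and 0.065 without NaCl replicate 1), Fasl from −0.22 to 0.093 (0.0084 without itaconate replicate 3, 0.093 without NaCl replicate 1) and Cd8a from −0.54 to 0.085 (0.085 without NaCl replicate 2). The difference in log2 ratio of Gzmb to Serpinb9 was 0.35 to 0.71.

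Replicate numbers are shared by both groups but not tied by the labels to a mouse or a day. Deviations of same-numbered libraries correlated across genes, which are not independent, at 0.146, 0.038 and 0.128 (numbers 1, 2 and 3). Every library correlated best with its own number, but NaCl replicate 2 by little, since it had 0.020 with itaconate replicate 3. Deviations were taken from the mean of each group, so these correlations are tied to each other. They come from the data and not from the design, and cannot show that the numbers mark pairs. With the replicate block Serpinb6b (adjusted p = 0.0184, limma), Cst7 (0.0351) and Serpinb1a (0.0430) passed, and the paired ratio of Gzmb to Serpinb9 had an exact p of 0.25, the smallest that 3 pairs allow. Counting error bears most on genes with few reads, such as Lamp3, Gzmc and Serpinb1a.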
